A study of Homo sapiens with 4 samples.

Results

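The short arm of human chromosome 3 (3p) was followed as a set of 1369 open regions, out of 50771 in the whole genome. Peaks of 4 libraries were merged where they overlapped by at least 1 bp, and a merged region was kept as a consensus region where all 4 libraries had a peak. Members are the consensus regions on chromosome 3 from 0 to 90 Mb (GRCh38), which are 38.3% of the 3576 merged regions there. The long arm of the same chromosome held 1928 consensus regions. Members had a median width of 933 bp and covered 1.29 Mb, and 283 of them (20.7%) overlapped a promoter, against 19.0% of all consensus regions. The arm was chosen because earlier work on these data had shown parts of it to differ between the groups, so its totals by treatment are given as a description with no test.

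The libraries are single-nucleus ATAC-seq of Panc1, an established line of human pancreatic ductal adenocarcinoma, recovered from mice into which it had been transplanted. One group had received Inflachromene, a compound that targets HMGB1 and HMGB2, a pair of abundant chromatin proteins (mice 11 and 35), and the other Carrier alone (mice 12 and 31). Both groups carry the same line, each library is 1 mouse, and the labels leave out the dose, duration, sex and age of the mice. Counts per library were 27088391 and 39947056 in Inflachromene 11 and 35, against 33336531 and 29295799 in Carrier 12 and 31.

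In ATAC-seq a transposase cuts open chromatin, so the counts over a stretch of chromosome follow both how open the DNA is and how many copies of it a nucleus holds, and these counts alone cannot tell the 2 apart. Pancreatic cancer lines are aneuploid, and cells of one line can differ in the copies they carry of a chromosome arm. The short arm of chromosome 3 is known for a dense band of tumour suppressor genes in its middle, for the TGF-beta receptor gene TGFBR2, for the Wnt effector gene CTNNB1 and for the large fragile-site gene FHIT.

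Promoter sequences of 4 genes are shown because each lies in a different stretch of the arm in the results that follow. BHLHE40 encodes a helix-loop-helix repressor of the circadian and hypoxia responses, RAB5A a small GTPase of early endosomes, TGFBR2 the type II receptor of TGF-beta, and CTNNB1 beta-catenin. The first lies in the distal part of the arm, the next pair further in, and the last in the middle of the arm, where counts did not follow the pattern of the others. Each sequence runs 5′ to 3′ on the plus strand, from 250 bases before to 50 bases after the start site, and was taken from RefSeq for GRCh38.p14. They lie at chr3:4979187-4979486, chr3:19946847-19947146, chr3:30606106-30606405 and chr3:41199255-41199554 in the order printed. Capitals mark matches, on either strand, to the GC box (GGGCGG), the CCAAT box (CCAAT) and the E-box (CACGTG).
BHLHE40: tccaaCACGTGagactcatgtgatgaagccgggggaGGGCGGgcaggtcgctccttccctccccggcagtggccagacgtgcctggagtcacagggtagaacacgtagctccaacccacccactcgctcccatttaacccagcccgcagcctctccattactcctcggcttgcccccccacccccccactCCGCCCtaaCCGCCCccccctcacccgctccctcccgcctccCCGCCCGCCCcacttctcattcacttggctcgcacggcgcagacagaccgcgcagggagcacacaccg
RAB5A: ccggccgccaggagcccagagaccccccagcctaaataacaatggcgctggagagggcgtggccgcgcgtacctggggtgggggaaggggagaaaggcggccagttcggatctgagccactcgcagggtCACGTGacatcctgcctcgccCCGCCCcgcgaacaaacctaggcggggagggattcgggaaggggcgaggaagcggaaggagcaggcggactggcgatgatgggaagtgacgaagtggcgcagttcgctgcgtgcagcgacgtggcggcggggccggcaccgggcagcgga
TGFBR2: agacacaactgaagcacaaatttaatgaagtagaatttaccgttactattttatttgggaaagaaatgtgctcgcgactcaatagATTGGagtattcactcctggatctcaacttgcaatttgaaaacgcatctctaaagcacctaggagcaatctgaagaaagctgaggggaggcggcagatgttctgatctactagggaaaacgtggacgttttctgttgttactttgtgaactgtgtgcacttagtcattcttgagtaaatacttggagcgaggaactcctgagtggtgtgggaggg
CTNNB1: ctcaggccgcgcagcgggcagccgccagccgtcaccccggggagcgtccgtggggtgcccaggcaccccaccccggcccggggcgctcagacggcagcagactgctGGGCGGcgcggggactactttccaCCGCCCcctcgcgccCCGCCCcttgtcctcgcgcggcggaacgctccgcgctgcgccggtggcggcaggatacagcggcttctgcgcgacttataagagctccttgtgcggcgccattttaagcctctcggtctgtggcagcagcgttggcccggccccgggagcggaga

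The BHLHE40 window held 5 GC boxes, 2 of which overlap, and 1 E-box. RAB5A had 1 GC box and 1 E-box, TGFBR2 had 1 CCAAT box, and CTNNB1 had 3 GC boxes. None of the 4 held the AP-1 motif TGANTCA. Over the 628 promoter windows of 3p, a GC box stood in 57.5%, a CCAAT box in 29.9%, an E-box in 7.64% and the AP-1 motif in 5.73%. Over all 22199 windows of the table the same motifs stood in 56.3%, 34.7%, 8.34% and 6.15%. A match is a description of the letters only.

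The libraries held between 2039 and 5186 barcodes, of which 684 to 1768 had 10000 or more counts, and the median depth of those was 20298 and 21380 counts in Inflachromene 11 and 35, against 17097.5 and 40103 counts in Carrier 12 and 31. Inflachromene 11 and Carrier 12 shared 1209 barcode sequences, 6 of them among barcodes of 10000 or more counts in both, and each other pair shared 25 to 357. Of 6 preset carcinoma markers 5 had a consensus region within 1000 bp of their start, among them KRT8 and VIM, with a summed level of 143 to 153 CPM (counts scaled to a library total of 1000000) under Inflachromene, against 144 to 147 CPM under Carrier. Of 6 fibroblast markers 4 had one, with summed levels of 117 to 125 CPM against 132 to 136 CPM, and of 5 myeloid markers 4, with 58 to 59.1 CPM against 61.8 to 62.8 CPM. None of the endothelial, B cell, acinar, endocrine or Schwann cell markers had one, and 1 of 4 T and NK cell markers did. The fibroblast and myeloid sums were lower in both Inflachromene libraries than in both Carrier libraries, a difference that was not tested. Of all single regions, 21.3% also had groups that did not overlap on the lower side. The part of these markers in the 3p values was not tested, nor was the number of barcodes from host cells.

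The arm as a whole took a larger share of the counts in both Inflachromene libraries. It held 2.85% and 3.02% of consensus counts in Inflachromene 11 and 35, against 2.60% and 2.84% in Carrier 12 and 31. The groups did not overlap, but Inflachromene 11 and Carrier 31 were nearly equal. Means were 2.93% ± 0.121 in Inflachromene and 2.72% ± 0.165 in Carrier (SD, n = 2 each), a log2 ratio of 0.11. Without Carrier 12 the difference of 0.212 percentage points became 0.0955, and without Inflachromene 35 it became 0.127. Without barcodes found in 2 or more libraries it was 0.180 points. The long arm held 3.85% and 3.71% under Inflachromene, against 3.91% and 3.72% under Carrier, a log2 ratio of -0.01.

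Peaks outside the consensus leaned to Inflachromene on 3p, as they did on the long arm and over all regions. On 3p, 152 of 3576 merged regions (4.25%) had a peak in both Inflachromene libraries and in neither Carrier library, against 45 (1.26%) the other way round. Over all 128195 merged regions these shares were 3.64% and 1.60%, and on the long arm 3.86% and 1.69%. Inflachromene 35, the deepest library, had 2747 peaks on 3p and 96240 in all, against 1996 to 2164 on 3p in the other libraries.

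A second division of the nuclei was used to describe where on the arm the counts lay. Low 9p and high 3p were already known to occur together from earlier results of these data. A higher 3p in this division is therefore no new finding. A barcode's level on a segment is its counts there over its consensus counts elsewhere, divided by the mean of the 4 library medians. Barcodes with a level under 0.75 on the short arm of chromosome 9 are called 9p-low. Chromosome 3 enters this class only through the total that the 9p counts are divided by, of which 3p was 2.60% to 3.02%. With that total taken outside chromosomes 3, 9 and 12, a choice added after seeing the data, 4 to 29 barcodes a library (0.226% to 1.68%) changed class. Of barcodes with 10000 or more counts, 28% and 26.4% were 9p-low in Inflachromene 11 and 35, against 7.98% and 14.2% in Carrier 12 and 31.

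In windows of 1 Mb, 3p was higher in 9p-low than in other barcodes over separate stretches and near level between most of them. Of 61 windows with 5 or more regions, 23 had a log2 difference above 0.2 in all 4 libraries, against 1 of 87 windows of the long arm. They formed 5 runs, at 4 to 6, 8 to 21, 30 to 34, 58 to 60 and 66 to 68 Mb. The threshold of 0.2 and the stretches named next were chosen after the windows were seen. Stretch A runs from 4 to 6 Mb, B from 8 to 16, C from 16 to 21, D from 23 to 29, E from 29 to 34, F from 36 to 58, G from 58 to 62 and H from 62 to 90 Mb.

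Stretches A and C had the highest mean ratios of 9p-low over other barcodes, within their spread of each other. Stretch A held 0.206%, 0.215%, 0.210% and 0.194% of consensus counts in the 9p-low barcodes of Inflachromene 11, Inflachromene 35, Carrier 12 and Carrier 31, against 0.110%, 0.159%, 0.0897% and 0.109% in their other barcodes. The 9p-low barcodes of all libraries lay close together, and the spread was in the others. The ratio of 9p-low over other averaged 1.83 ± 0.405 in A, 1.41 ± 0.133 in B, 1.78 ± 0.317 in C, 1.41 ± 0.099 in E and 1.31 ± 0.080 in G (SD over 4 libraries). It was 0.988 ± 0.054 in D, 0.984 ± 0.013 in F and 1.01 ± 0.058 in H, and 1.05 ± 0.063 over the long arm. Inflachromene 35 had the lowest ratio of the 4 libraries in A, B, C, E and G, 1.35 in A and 1.32 in C, and its other barcodes held the highest share there. The ratio in C was above that in A in Inflachromene 11 (1.88 and 1.86) and in Carrier 31 (1.87 and 1.78).

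**Figure D1:**
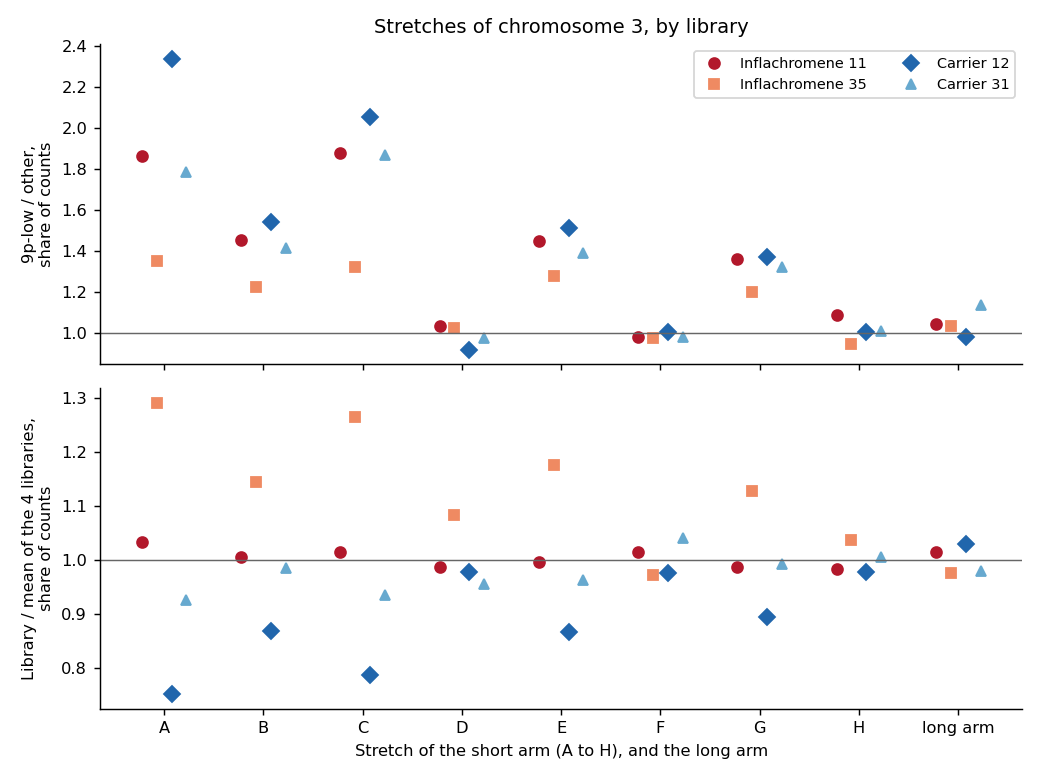
Share of consensus counts by stretch of the short arm (A to H) and over the long arm, with a point for each library. The upper panel gives the ratio of 9p-low over other barcodes, above 1 in all 4 libraries for A, B, C, E and G and between 0.973 and 1.00 for F; the lower panel gives each library's share over the mean of the 4 libraries, where Inflachromene 35 is highest and Carrier 12 lowest in A, B, C, E and G.

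Single regions were tested between 9p-low and other barcodes with edgeR's quasi-likelihood test, with 2 sums per library, a library term and Benjamini-Hochberg adjustment over all regions. Of 1366 members tested, 250 (18.3%) were called higher at an adjusted p under 0.05, against 3.09% of all regions, and 11 (0.805%) were called lower, against 2.44%. On the long arm 37 regions were called higher (1.92%) and 38 lower (1.97%). Because the link of this division to 3p was known beforehand, the excess on 3p is given as a description. Of the 250, 238 lay in stretches A, B, C, E and G. Called higher were 35 of 45 tested regions in A, 123 of 277 in B, 26 of 45 in C, 44 of 128 in E and 10 of 49 in G. In the 535 regions of F, 2 were called higher and 9 lower. Log2 differences of the 250 had a median of 0.63 and ranged from 0.34 to 1.39. Promoters and other regions of the 5 stretches had like differences, with medians of 0.54 over 86 regions and 0.50 over 459. Called higher were 75 (87.2%) of the promoters and 163 (35.6%) of the other regions. Their median levels over all barcodes were 48.0 and 10.8 CPM. On simulated data for this comparison, edgeR recovered 79% of log2 changes of 1 and 9% of changes of 0.5. Of the 250, 108 kept the call in each of the 4 fits that left out 1 library, as did 1 of the 11, ACTR8; 130 and 10 lost it without Inflachromene 11. With the 9p level taken over counts outside chromosomes 3, 9 and 12, 224 members were called higher and 10 lower. The barcodes of both classes came from the same libraries, so the libraries' depths and the treatment are shared by the 2 sides of this comparison.

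The distal stretch A carries BHLHE40 and ITPR1, the gene of an inositol trisphosphate receptor that releases calcium from the endoplasmic reticulum. The BHLHE40 promoter region (chr3:4978501-4979691) had 239, 241, 226 and 246 CPM in the 9p-low barcodes of Inflachromene 11, Inflachromene 35, Carrier 12 and Carrier 31, against 128, 182, 97.3 and 123 CPM in the other barcodes. It was higher in 9p-low barcodes of 4 of 4 libraries, with a log2 difference of 0.89 (SE 0.11, adjusted p = 2.96e-05, edgeR). A region beyond the gene, at chr3:5026313-5027230, rose by 1.05 (SE 0.11, adjusted p = 9.01e-06, edgeR), and the ITPR1 promoter region (chr3:4492858-4493770) by 0.93 (SE 0.10, adjusted p = 1.78e-05, edgeR). These log2 differences stood close to each other and in 4 of 4 libraries had the same sign.

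Stretch C, from 16 to 21 Mb, gave differences of similar size. The region shared by the promoters of EFHB and RAB5A (chr3:19946606-19947545) had 193, 165, 183 and 185 CPM in 9p-low barcodes against 99.5, 124, 76.2 and 97.6 CPM in other barcodes, in the same order of libraries. Its log2 difference was 0.90 (SE 0.11, adjusted p = 3.17e-05, edgeR). The promoter of SGO1, whose protein shields cohesin at centromeres, rose by 0.77 and that of SATB1, a chromatin organiser, by 0.91, a call lost without Inflachromene 11 (adjusted p = 0.064, edgeR). The region shared by DPH3 and OXNAD1 rose by 0.90 and a region within EFHB (chr3:19888886-19889830) by 1.27 (SE 0.14, adjusted p = 1.01e-05, edgeR).

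Stretch B holds a group of DNA repair and transcription genes with smaller differences. RAD18, a ubiquitin ligase of post-replication repair, rose by 0.40, FANCD2 of the Fanconi anaemia pathway by 0.47, the 8-oxoguanine glycosylase gene OGG1 by 0.38 and XPC, a damage sensor of nucleotide excision repair that shares its region with LSM3, by 0.56. HDAC11 rose by 0.53, the autophagy gene ATG7 by 0.55, the ribosomal protein gene RPL32 by 0.47 and the coat protein gene SEC13 by 0.53. Adjusted p-values of these 8 lay under 0.05, the highest being 0.032 for RAD18 (edgeR). With 1 library left out, SEC13, ATG7, HDAC11 and XPC kept the call in each of the 4 fits. RAD18 and RPL32 kept it only without Inflachromene 35: without Carrier 12, Carrier 31 and Inflachromene 11 their adjusted p was 0.184, 0.121 and 0.0775 for RAD18 and 0.0851, 0.0868 and 0.058 for RPL32 (edgeR). OGG1 lost it without Carrier 31 (0.0594) and Inflachromene 11 (0.0686), and FANCD2 without Inflachromene 11 (0.0703). PPARG, the nuclear receptor of fat cell differentiation, rose by 0.55 (SE 0.16, adjusted p = 0.045, edgeR). Its adjusted p was 0.18, 0.197 and 0.344 without Carrier 12, Carrier 31 and Inflachromene 11, and it was higher in 3 of 4 libraries only: it had 19.9 CPM in 9p-low against 21.8 CPM in other barcodes of Inflachromene 35.

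In stretch E, the TGFBR2 promoter region (chr3:30606052-30606985) had 82.5, 97.3, 64.3 and 74.8 CPM in 9p-low barcodes against 52.2, 71.6, 51.9 and 55.8 CPM in other barcodes. It was higher in all 4 libraries, with a log2 difference of 0.49 (SE 0.09, adjusted p = 0.0019, edgeR). CLASP2, a microtubule plus-end protein gene, rose by 0.42, a call lost without Carrier 31 (adjusted p = 0.0559) and without Inflachromene 11 (0.0594, edgeR). DYNC1LI1, a dynein light intermediate chain gene, rose by 0.53. In stretch G, FHIT (chr3:61251080-61252003) had 20.2, 19.7, 24.7 and 30.2 CPM in 9p-low against 9.24, 15.2, 7.34 and 12.6 CPM in other barcodes, a log2 difference of 1.11 (SE 0.19, adjusted p = 0.0013, edgeR). The neighbouring phosphatase gene PTPRG rose by 1.01. In H, LRIG1, a negative regulator of EGF receptor signalling at 66.5 Mb, rose by 0.74 (SE 0.10, adjusted p = 0.00014, edgeR), and 5 of the 250 regions lay between 66 and 68 Mb.

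The middle stretch F, which holds most of the arm's tumour suppressor band, showed no such shift. CTNNB1 (chr3:41198957-41200175) had 52.5, 44.8, 36.3 and 47.7 CPM in 9p-low barcodes against 50.2, 45, 38.5 and 48.3 CPM in other barcodes, a log2 difference of 0.02 (SE 0.09). RASSF1, a Ras-associated tumour suppressor, had 84.4, 83.5, 83.4 and 91.9 CPM against 88.4, 77.6, 76.2 and 90.1 CPM, a difference of 0.07 (SE 0.09). The histone methyltransferase gene SETD2 stood at -0.07 (SE 0.12). None of these 3 passed the test, which does not show that they were equal.

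Within F, 9 of the 11 members called lower lay between 52 and 54 Mb. The 64 members there had a median log2 difference of -0.29, with 48 of them below 0, none called higher, and a median of -0.11 for Inflachromene over Carrier. ACTR8, a subunit of the INO80 chromatin remodeller, had 29.8, 22.5, 29.3 and 31.3 CPM in 9p-low against 46, 35.8, 41.3 and 44.9 CPM in other barcodes, and fell by 0.56 (SE 0.11, adjusted p = 0.0032, edgeR). The promoter of SELENOK, a selenoprotein gene of the endoplasmic reticulum, fell by 0.45, that of UQCC5 by 0.43 and a region within the transketolase gene TKT by 0.82. The region shared by GNL3 and PBRM1, the gene of a SWI/SNF bromodomain subunit, fell by 0.38 (SE 0.10, adjusted p = 0.023, edgeR), and a region within PBRM1 by 0.47. Of these, ACTR8 alone kept its call in each fit with 1 library left out. Without Inflachromene 11 the adjusted p was 0.102 for the SELENOK promoter, 0.111 for UQCC5 and 0.0503 within PBRM1 (edgeR). The region of GNL3 and PBRM1 had 0.0728, 0.0847 and 0.173, and that within TKT 0.0852, 0.111 and 0.0918, without Carrier 12, Carrier 31 and Inflachromene 11 (edgeR). These 6 were lower in the 9p-low barcodes of all 4 libraries. The boundaries of 52 and 54 Mb were chosen after the values were seen.

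**Figure D2:**
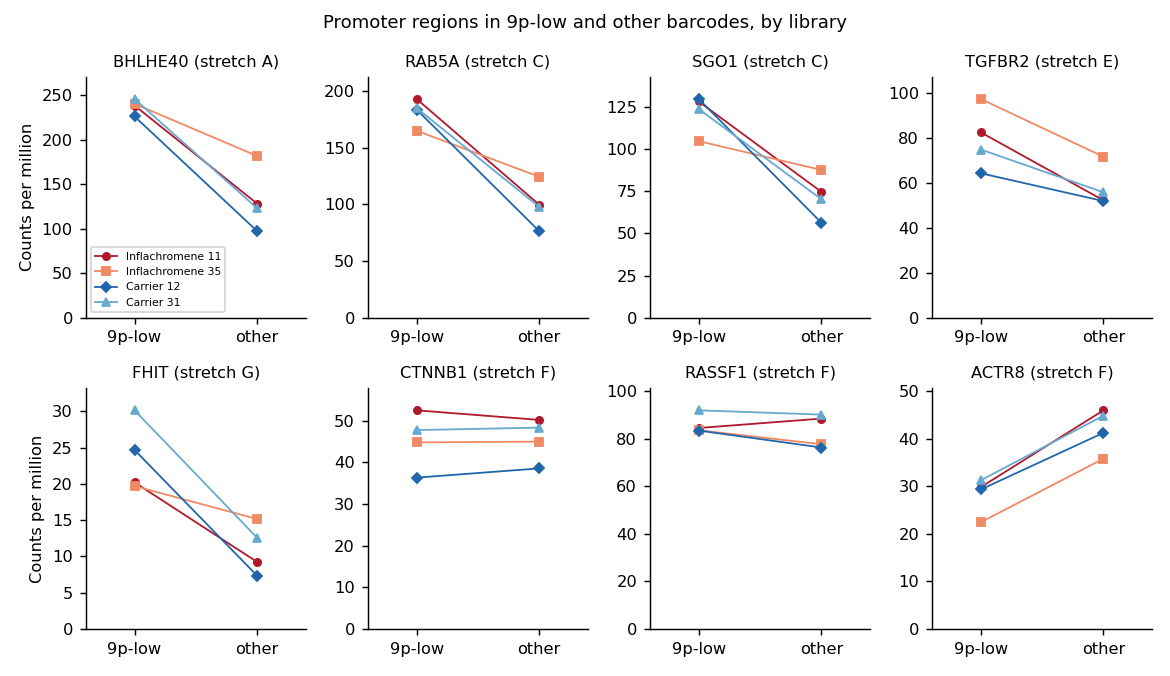
Levels in CPM of 8 promoter regions in 9p-low and other barcodes, with a line for each library. BHLHE40, RAB5A, SGO1, TGFBR2 and FHIT are higher in 9p-low barcodes of all 4 libraries, CTNNB1 and RASSF1 change by little, and ACTR8 is lower in 9p-low barcodes of all 4.

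Lists of 3p genes, taken at their promoter regions, held both members that rose and members near 0. Over all regions the median log2 difference of 9p-low over other was 0.00 and 3.09% were called higher. Of all 9652 promoter regions 587 (6.08%) were higher and 261 (2.70%) lower. On 3p, 75 of 86 promoter regions in stretches A, B, C, E and G (87.2%) and 7 of 197 elsewhere (3.55%) were called higher. Called lower were 0 and 7. The lists hold 3p promoters only, so these 3p shares are the ones to set beside them. Of the tumour suppressor and DNA repair genes 13 of 19 had a region at their promoter, 5 rose, 1 fell and their median was 0.07. Of the chromatin and transcription regulators 17 of 23 had one, 9 rose, 1 fell and the median was 0.38. Of 5 nuclear receptors 2 rose, with a median of -0.01, and THRB, a thyroid hormone receptor gene in stretch D, stood at -0.11 (SE 0.20). Of the TGF-beta, Wnt and MAPK genes 13 of 16 had a region and 4 rose, among them WNT7A at 0.57 (adjusted p of 0.141, 0.0672 and 0.243 without Carrier 12, Carrier 31 and Inflachromene 11, edgeR), with a median of 0.07. Of the cell division and replication genes 12 of 13 had one, 5 rose and 1 fell, with a median of 0.03. Of the protein synthesis and housekeeping genes 16 of 18 had one and 4 rose, and of the autophagy, innate and stress genes 8 of 11 had one and 1 rose, with medians near 0 in both. A list of proximal 3p was set for axon guidance and adhesion genes but also holds others, such as FHIT, MITF and SLC25A26. Of its genes 9 of 20 had a region, 4 rose and the median was 0.46. None of the 11 chemokine receptor genes of 3p, which leukocytes use, had a consensus region at its promoter. By place, those that rose lay in the 5 high stretches, which were named after the values were seen. The exceptions were LRIG1 among the signalling genes and MAGI1 and SLC25A26 in the list of proximal 3p. No list member in stretch F rose. The link between a list and its place was not tested.

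Seen by treatment, the same stretches were higher in Inflachromene. Stretch A held 0.139% and 0.174% of counts in Inflachromene 11 and 35, against 0.101% and 0.125% in Carrier 12 and 31. B held 0.686% and 0.781% against 0.592% and 0.672%, C 0.0978% and 0.122% against 0.0759% and 0.0902%, and E 0.221% and 0.261% against 0.192% and 0.213%. The groups did not overlap in these 4 stretches, nor in D, which had no shift in 9p-low barcodes, with 0.113% and 0.124% against 0.112% and 0.11%. In G they did overlap, with 0.0647% and 0.0739% against 0.0585% and 0.0650%. Stretch F held 1.31% and 1.26% against 1.26% and 1.34%. The ratio of Inflachromene over Carrier means was 1.39 in A, 1.16 in B, 1.32 in C, 1.07 in D, 1.19 in E, 1.12 in G and 0.985 in F. Within 9p-low barcodes the ratio was 1.04 in A, 1.01 in B, 1.02 in C, 1.15 in D and 1.07 in E. Within the other barcodes it was 1.36, 1.13, 1.28, 1.06 and 1.14 in the same order.

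No single member passed the test of Inflachromene against Carrier. edgeR called 0 of 1369 members and 0% of all 50771 regions in either direction. At an unadjusted p under 0.05, 118 members (8.62%) were higher and 13 (0.95%) lower, against 3.04% and 1.44% of all regions. Groups did not overlap for 295 members on the higher side (21.5%) and 209 on the lower side (15.3%), against 11% and 21.3% of all regions. The arm was chosen on this contrast, so nothing is read from these shares. DESeq2 called 4 members higher (0.341%), against 0.0653% of all regions, and none lower. On simulated data with this design edgeR recovered 44% of log2 changes of 1 and 0% of changes of 0.5. The stretch ratios of Inflachromene over Carrier above are all smaller than a log2 change of 0.5. With 2 libraries a group, p-values measure the spread between these 4 mice.

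The 4 regions called by DESeq2 were intragenic or distant from genes. A region within SLC6A6, the taurine transporter gene (chr3:14452560-14453508, stretch B), had 32.8 and 46.6 CPM in Inflachromene 11 and 35 against 19.7 and 20.8 CPM in Carrier 12 and 31. Its log2 fold change in edgeR's fit was 1.01 (SE 0.19), and its DESeq2 adjusted p was 0.012. The region within EFHB had 40.4 and 51.9 CPM against 23.6 and 24.5 CPM, and its DESeq2 adjusted p was 0.0031. A region within ITPR1 (chr3:4741311-4742232) had 33.8 and 59.0 CPM against 20.8 and 25.3 CPM, with a DESeq2 adjusted p of 0.035; it was named after its value was seen. A region between genes nearest to RBMS3 (chr3:30258606-30259663) had 9.29 and 12.8 CPM against 3.86 and 4.41 CPM, with a DESeq2 adjusted p of 0.020. In all 4 both Inflachromene libraries lay above both Carrier libraries. In edgeR's fit the same regions had an adjusted p of 1.00.

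Other members with small unadjusted p-values in edgeR are given by value. A region near KCNH8, a potassium channel gene, had 8.34 and 8.37 CPM under Inflachromene, against 4.27 and 3.84 CPM under Carrier. The promoter of VIPR1, the receptor of vasoactive intestinal peptide, had 11.7 and 13.0 CPM against 6.28 and 6.65 CPM, and a region nearest to LOC105377015 8.42 and 11.8 CPM against 4.88 and 3.54 CPM. VIPR1 lies in stretch F, and its log2 difference of 0.97 (SE 0.21) stood among neighbours near 0. On the lower side, 6 regions of 2.02 to 8.01 CPM in Inflachromene had log2 values of -0.53 to -0.74, within or near WDR48, ZNF621, RAD54L2, SELENOK, CACNA2D3 and PRICKLE2.

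The BHLHE40 promoter had 179 and 201 CPM in Inflachromene 11 and 35 against 117 and 154 CPM in Carrier 12 and 31, a log2 fold change of 0.52 (SE 0.19, unadjusted p = 0.021, adjusted p = 1.00, edgeR). TGFBR2 had 62.4 and 79.2 CPM against 53.5 and 60.0 CPM, at 0.35 (SE 0.17, adjusted p = 1.00, edgeR). CTNNB1 had 52.6 and 45.8 CPM against 38.7 and 49.5 CPM, at 0.19 (SE 0.18, adjusted p = 1.00, edgeR), and its groups overlapped. RASSF1 had 85.8 and 79.6 CPM against 77.3 and 89.9 CPM, SETD2 37.5 and 30.4 CPM against 31.1 and 34.7 CPM, and FHIT 12.9 and 16.4 CPM against 8.47 and 15.5 CPM, with overlap in all 3. THRB had 13.8 and 29.9 CPM against 10.3 and 11.3 CPM, so Inflachromene 35 alone stood apart there.

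By barcode, the 3p level formed a lower and an upper hump in the Inflachromene libraries. Carrier 12 had a tail in place of the upper hump. Carrier 31 had a small upper hump and a further rise at 1.4. Of barcodes with 10000 or more counts, 20.6% in Inflachromene 11 (95% Clopper-Pearson interval 18.3% to 23%) and 37.8% in Inflachromene 35 (35.5% to 40.2%) had a relative 3p level of 1.2 or more, against 5.37% in Carrier 12 (4.37% to 6.53%) and 18.7% in Carrier 31 (15.9% to 21.8%). These intervals cover counting error only. The median 3p level of 9p-low barcodes was 1.19 and 1.21 under Inflachromene, against 1.17 and 1.2 under Carrier. That of other barcodes was 0.947 and 1.02 against 0.916 and 0.939. The cut at 1.2 falls within the higher hump of the Inflachromene libraries, and 62 to 367 barcodes a library lay within 0.05 of it. At a cut of 1.1 the mean shares were 45.7% against 18.4%, a difference of 27.3 percentage points. At a cut of 1.3 the shares were 7.39% and 13.6% against 1.41% and 11.1%, so that the mean difference of 17.2 percentage points became 4.21.

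**Figure D3:**
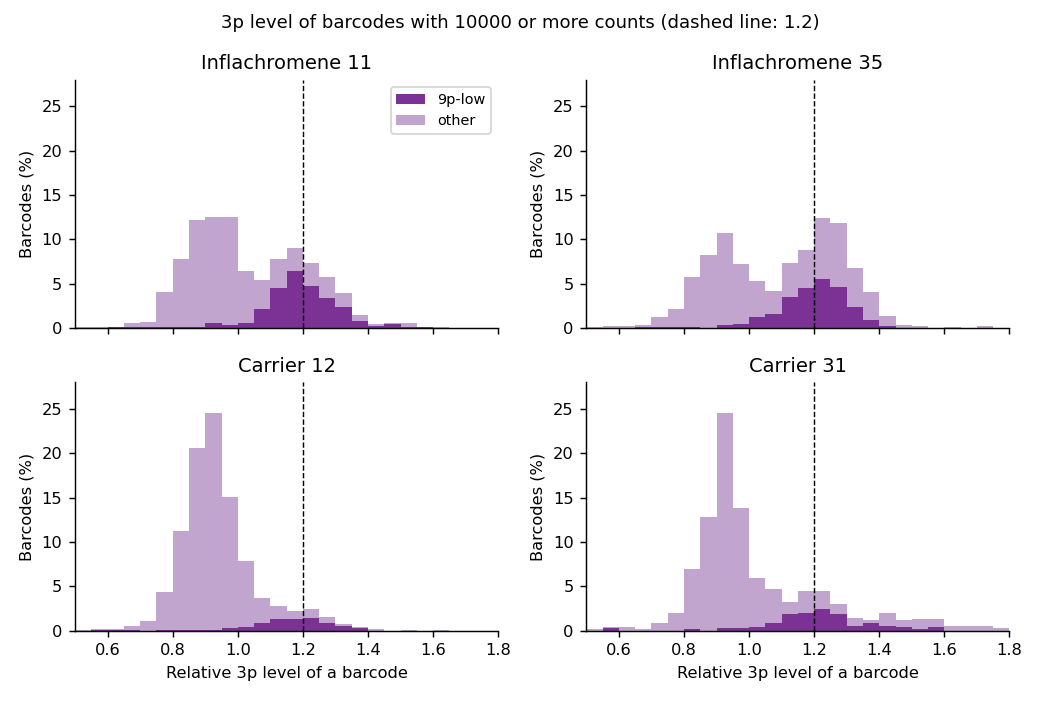
Relative 3p level of barcodes with 10000 or more counts, in bins of 0.05 between 0.5 and 1.8, as a percentage of each library's barcodes, with 9p-low barcodes dark and other barcodes light. The Inflachromene libraries show a hump near 0.9 and another near 1.2. Carrier 12 has a tail in place of the upper hump, and Carrier 31 has a small upper hump. The Carrier libraries have 5.37% and 18.7% of barcodes at 1.2 or more, against 20.6% and 37.8% in the Inflachromene libraries.

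The level was shared along the arm only in part. Across barcodes, the level of 8 to 16 Mb correlated with that of 30 to 34 Mb at r = 0.716 and 0.658 in Inflachromene 11 and 35, and at 0.461 and 0.789 in Carrier 12 and 31. With that of 36 to 57 Mb it correlated at 0.224 and 0.154, against 0.121 and 0.441 in Carrier. These correlations describe 684 to 1768 barcodes a library, which share a library and differ in depth. From 0 to 45 Mb, 9p-low barcodes had medians of 1.32 and 1.36 under Inflachromene and 1.3 and 1.33 under Carrier, and other barcodes 0.882 and 1.04 against 0.876 and 0.881. From 45 to 90 Mb all 8 medians lay between 0.972 and 1.03.

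High 3p also occurred without low 9p, most often in Inflachromene 35. Of its 653 barcodes with a 3p level of 1.2 or more, 414 were not 9p-low. Among barcodes with a 9p level of 0.85 or more, 49 of 688 (7.12%) in Inflachromene 11 and 280 of 961 (29.1%) in Inflachromene 35 were at 1.2 or more in stretch B, against 32 of 1555 (2.06%) in Carrier 12 and 45 of 524 (8.59%) in Carrier 31. Stretches A, C, E and F enter this class only through the totals that the levels are divided by. In these barcodes A held 0.205% and 0.238% of counts in the Inflachromene libraries and 0.15% and 0.211% in the Carrier libraries, close to the shares in 9p-low barcodes in 3 of 4 libraries, with Carrier 12 lower. The class was set after the windows were seen. Barcodes with a 9p level from 0.75 to under 0.85 are in neither range: there were 131 and 310 under Inflachromene, against 72 and 63 under Carrier. Of these 71% and 88.4% were at 1.2 or more in stretch B under Inflachromene, against 55.6% and 79.4% under Carrier.

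The remaining barcodes have a 9p level of 0.85 or more and a level under 1.2 in stretch B. They were chosen for not being high in B, whose level moves with that of 30 to 34 Mb, so low and like values in A, C and E are in part set by that choice and support nothing. Stretch A held 0.0847% and 0.0896% of counts in the 639 and 681 such barcodes of Inflachromene 11 and 35, against 0.0844% and 0.0860% in the 1523 and 479 of Carrier 12 and 31. C held 0.0613% and 0.0643% against 0.0658% and 0.0629%, and E 0.173% and 0.182% against 0.180% and 0.172%. F held 1.31% and 1.26% against 1.26% and 1.32%. In C, E and F the groups overlapped, and in A Carrier 31 lay above Inflachromene 11.

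**Figure D4:**
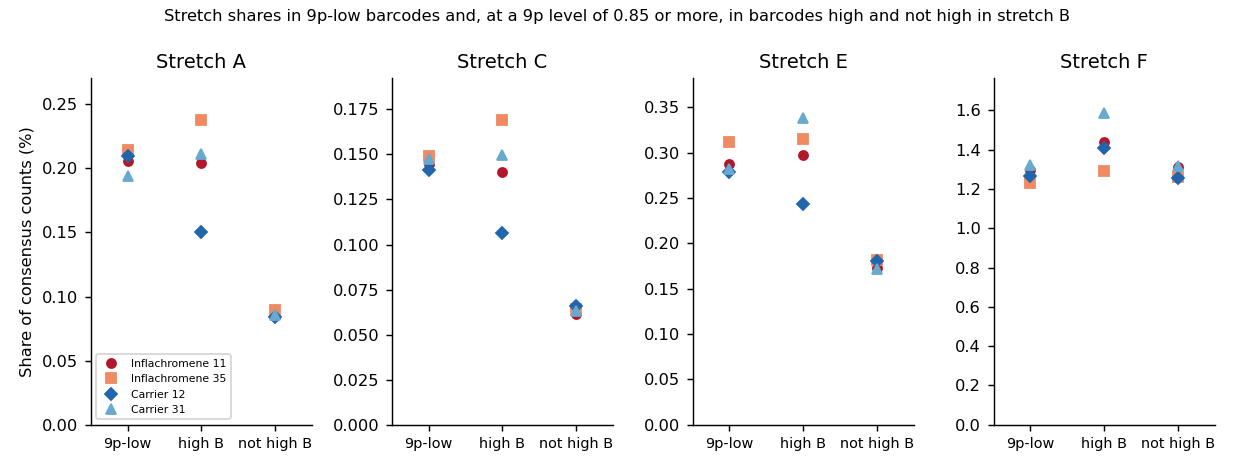
Share of consensus counts on stretches A, C, E and F, in percent, with a point for each library, in 9p-low barcodes, in barcodes with a 9p level of 0.85 or more that are high in stretch B, and in those with a 9p level of 0.85 or more that are not high in B. The 9p-low points lie near 0.2% in A; the points of barcodes not high in B lie between 0.0844% and 0.0896% in A and close together in C, E and F.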

How the data were processed

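The deposited files of each of the 4 libraries are peak positions and raw counts, whole numbers by peak and by barcode that had not been normalized. Cell Ranger ATAC 2.1.0 made the peak lists, per the file headers, and GRCh38 and Cell Ranger ARC are named in the submitters' processing notes. Between 82.4% and 84.9% of matrix entries above 0 were even, so 2 counts are often 1 fragment. No column of another sample was present. Counts in consensus regions were added up over every barcode of a library. Where a library called no peak it gives no count, so regions gained or lost outright enter only as numbers of peaks.

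Single regions were tested with edgeR 4.0.16 in R 4.3.3 (TMM factors, filterByExpr, quasi-likelihood F test, Benjamini-Hochberg adjustment over all regions, threshold 0.05), and with DESeq2 1.42.0 as the other tool. The script was tested on simulated counts with known changes. CPM are the deposited counts scaled to a library total of 1000000 in consensus regions. For 9p-low against other barcodes only barcodes with 10000 or more counts entered, and the filter removed 48 regions. No doublet caller was run. Standard errors come from the quasi-likelihood statistic.

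A region was called a promoter region where it overlapped a window of 250 bases before to 50 after a start site in RefSeq's table (GRCh38.p14), and 429 of 501 protein-coding genes of 3p had such a window. Exons and introns were not used here. For cell type markers, a region within 1000 bp of the window, or of a gene's outer end where the table had none, was counted, a choice made after seeing the data.

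The members, gene lists and tests were chosen with earlier results of these data known. Named genes were a preset group, in the Inflachromene comparison the 6 members a direction of smallest unadjusted p where the groups did not overlap, the 5 in each direction with the smallest p in the 9p-low comparison, and up to 4 per list. Not all of these are printed, and some that the rule would name are left out here. Alternatives were other tools, filters, cuts, depths, denominators and merging rules, and leaving out each library.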

Additional observations from a re-analysis of the deposited data

Results flagged for a closer look

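For 4 of the named regions the 9p-low over other ratio had one sign in both Inflachromene libraries and the opposite sign in both Carrier libraries, and none of these differences was tested. SETD2 had 37.7 and 32.8 CPM in 9p-low barcodes against 37.6 and 29.9 CPM in other barcodes of Inflachromene 11 and 35, the first pair being nearly equal, a mean log2 ratio of 0.067. In Carrier 12 and 31 it had 27.9 and 27.4 CPM against 31 and 36.4 CPM, a mean of -0.28, so the ratios differ by 0.34. The promoter region shared by AZI2 and ZCWPW2 had 79.5 and 67.2 CPM against 84.9 and 72.2 CPM under Inflachromene, and 69.9 and 75.7 CPM against 64.9 and 74.7 CPM under Carrier, a difference of -0.16. OXSR1, a stress kinase gene, had 107 and 103 CPM against 124 and 112 CPM under Inflachromene. Under Carrier it had 128 and 117.3 CPM against 103 and 116.8 CPM, a difference of -0.32. A region between genes nearest to PRICKLE2 had 4.4 and 3.34 CPM against 4.65 and 7.89 CPM under Inflachromene, and 12.6 and 10.9 CPM against 10.2 and 8.06 CPM under Carrier, a difference of -0.95. With 2 libraries a group, no library could be examined as an outlier.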

How the results depend on the processing

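The larger 3p share of counts in Inflachromene kept its direction under every alternative run, from 0.163 percentage points in barcodes that were not 9p-low to 0.290 points with each library's own peaks, and from 0.0955 to 0.329 points when 1 library was left out. The difference in barcodes high on 3p became 4.21 points at a cut of 1.3, 27.3 points at a cut of 1.1, and was 7.22 to 25.6 points with 1 library left out, lowest without Carrier 12. The log2 ratio of the 3p level of 9p-low over other barcodes was 0.32 ± 0.050 (SD over 4 libraries) and lay between 0.27 and 0.37 under all alternatives, and between 0.29 and 0.36 with 1 library left out. For Inflachromene against Carrier, DESeq2 called 4 members higher and 0 lower, and the other fits on all 4 libraries called 0. With 1 library left out, edgeR called 0 to 189 members higher and 0 to 3 lower, the most without Inflachromene 11, where 5.48% of all regions were called higher. The lone library of a group is then assumed to vary like the others. For 9p-low against other barcodes, members called higher, 250 in the fit reported, were 229 with DESeq2, 109 without the library term, 58 and 383 at 9p cuts of 0.65 and 0.85, 107 at a depth of 20000 counts, and 121 to 265 with 1 library left out. Members called lower, 11 in the fit reported, were 7 with DESeq2, 1 without the library term, 1 at the cut of 0.65, 4 at 20000 counts, and 1 to 14 with 1 library left out. In each of these fits the share of members called higher exceeded that of all regions, 4.25% against 0.501% at the cut of 0.65. With the 9p level taken over counts outside chromosomes 3, 9 and 12 they were 224 higher and 10 lower. Of the single regions whose log2 difference is printed, 3 near 0 changed sign: THRB to 0.17 without the library term, CTNNB1 to -0.0015 at the cut of 0.65, and with 1 library left out THRB lay between -0.48 and 0.087, CTNNB1 between -0.0055 and 0.029 and SETD2 between -0.15 and 0.037. Of the named regions whose difference is not printed, 7 also changed sign in at least 1 fit. The cause was not tested. No paired analysis was possible because the mouse numbers of the 2 groups are not shared. Small counts per region and 2 libraries a group limit what could be called.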

Other observations

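Some members outside the named stretches also differed between 9p-low and other barcodes. Of the 250 called higher, 7 lay neither in stretches A, B, C, E and G nor between 66 and 68 Mb. They included the promoters of CRBN and TREX1. CRBN, a ubiquitin ligase substrate receptor that the drug thalidomide binds, rose by 0.57. Its edgeR adjusted p was above 0.05 without Carrier 31, at 0.0729. TREX1, an exonuclease that clears DNA from the cytosol, rose by 0.51. Its edgeR adjusted p was 0.0701, 0.17 and 0.0907 without Carrier 12, Carrier 31 and Inflachromene 11. Both were chosen after their values were seen.

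In Inflachromene 35 the long arm was lower in barcodes high on 3p, with a median relative level of 0.894 against 1.01 in its remaining barcodes. In Carrier 31 it was higher, at 1.19 against 0.940, and in Inflachromene 11 it was 1.08 against 0.995. Across barcodes, the level of 3p correlated with that of the long arm at r = 0.447 and -0.185 in Inflachromene 11 and 35, and at 0.0908 and 0.589 in Carrier 12 and 31. Barcodes high on 3p thus came with different long-arm levels in different libraries.

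The short arm of chromosome 9, which set the 9p-low class, held 1.33% and 1.3% of counts under Inflachromene, against 1.53% and 1.42% under Carrier. Across barcodes its level correlated with that of 3p at r = -0.480 and -0.497 in Inflachromene and at -0.413 and -0.390 in Carrier. In Inflachromene 35, barcodes with a 9p level between 0.8 and 0.9 had a median 3p level of 1.24 and those of Inflachromene 11 one of 1.15, against 0.963 in Carrier 12 and 1.16 in Carrier 31.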
